A study of Mus musculus with 8 samples.

Results

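Integrins are cell-surface receptors built from 1 alpha and 1 beta chain, and the alpha chain largely sets which matrix protein the pair binds. Beta 1 pairs with many alpha chains and so reads several matrices, whereas beta 5 pairs with alpha v. Inside the cell, talin and kindlin bind the beta tail and link the receptor to actin filaments, whose assembly profilin 1 helps to supply with monomer. The 10 integrin genes described here were taken by symbol from a deposited table of 23038 mouse genes, and all 10 were found. They comprise 8 alpha chains (Itga1, Itga3, Itga4, Itga5, Itga6, Itga7, Itga9 and Itgav) and 2 beta chains (Itgb1 and Itgb5).

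The RNA came from CAD cells (Cath.a differentiated), a mouse catecholaminergic neuronal line grown undifferentiated in 8% fetal bovine serum. The groups are 4 libraries labelled PFN1 KO, from cells in which Pfn1 was targeted with CRISPR/Cas9, and 4 control libraries, titled wild type but with a genotype label that names a control knockout. The labels call the 4 in each group biological replicates without saying which cultures or clones they came from. The p-values therefore reflect the spread among these libraries, which may be technical. Levels are RPKM, reads scaled by gene length and by the total of counted reads in a library, which allows comparison between genes of different length.

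Pfn1 itself lay at 139 ± 10.8 RPKM in PFN1 KO libraries and 423 ± 16.4 RPKM in control libraries (SD, n = 4 each), so 32.9% of the transcript level remained. Estimated depth was 28600000 to 33000000 reads in PFN1 KO and 26200000 to 34500000 in control libraries. The ribosomal precursor Rn45s took 8.4 to 11.9% of reads in PFN1 KO libraries, most in library 1. In control libraries it took 9.15 to 14.2%, least in library 4. Calls of named genes and counts of called list genes that change without PFN1 KO library 1 and control library 4 are given beside them or at the end. This does not cover Tln1 and Fermt2. Of 12 genes listed as marks of catecholaminergic neurons 11 were tested, of which 4 were called higher and 4 lower. Over all tested genes 30.4% were called higher and 15.5% lower. Without PFN1 KO library 1 and control library 4 together, the calls among the 11 were 4 higher and 3 lower. Hand2 lay at 225 ± 13.9 RPKM in PFN1 KO and 208 ± 3.498 RPKM in control libraries and was not called. Dbh fell to 10.4 ± 1.22 RPKM in PFN1 KO, against 31.7 ± 2.15 RPKM in control libraries, and Th to 0.773 ± 0.133 RPKM in PFN1 KO, against 2.25 ± 0.404 RPKM in control libraries. Chgb rose to 347 ± 15.4 RPKM in PFN1 KO, against 162 ± 20.7 RPKM in control libraries; the part of this shift in the integrin results was not tested. Summed markers of leukocytes, epithelium and muscle reached at most 0.624 RPKM in PFN1 KO and 0.536 RPKM in control libraries, with Cd14, Krt18, Myod1 and Myog listed at 0 throughout. Summed fibroblast markers lay at 2.73 to 3.35 RPKM in PFN1 KO and 2.80 to 3.55 RPKM in control libraries, nearly all of it Dcn, with Postn at 0. Summed endothelial markers lay at 3.09 to 3.60 RPKM in PFN1 KO and 2.24 to 3.40 RPKM in control libraries, mainly Pecam1, which was not called with all 8 libraries and was called higher without PFN1 KO library 1 and control library 4; their part in the results was not tested.

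The mix of alpha chain transcripts differed between PFN1 KO and control libraries. Itga5, the alpha chain of the fibronectin receptor, fell to 45.9% of its control level. The collagen receptor chain Itga1, the laminin receptor chain Itga3, Itga9, the beta chain Itgb5 and, by a small margin, Itgav rose. Itga6, a laminin receptor chain, and Itgb1 did not pass the test. Genes entered the test with a group mean of 1 RPKM or more in PFN1 KO or control libraries. A call needs an adjusted p below 0.05 (limma on log2(RPKM + 1), two-sided, Benjamini-Hochberg over all genes in the test). All 8 tested members exceeded 1 RPKM in both groups, and the other 2, Itga4 and Itga7, lay under it in both. Of the 8, 5 were called higher and 1 lower. Over all 11465 tested genes 30.4% were called higher and 15.5% lower, or 45.9% together. The median log2 fold change was 0.23 over the 8 members and 0.06 over all tested genes. With median-of-ratios scaling, the split over all genes was 2750 higher and 2709 lower, and that of the members 4 higher and 1 lower, the loss being Itgav. In bulk RNA, fewer cells with a transcript and less transcript per cell cannot be told apart.

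**Figure D1:**
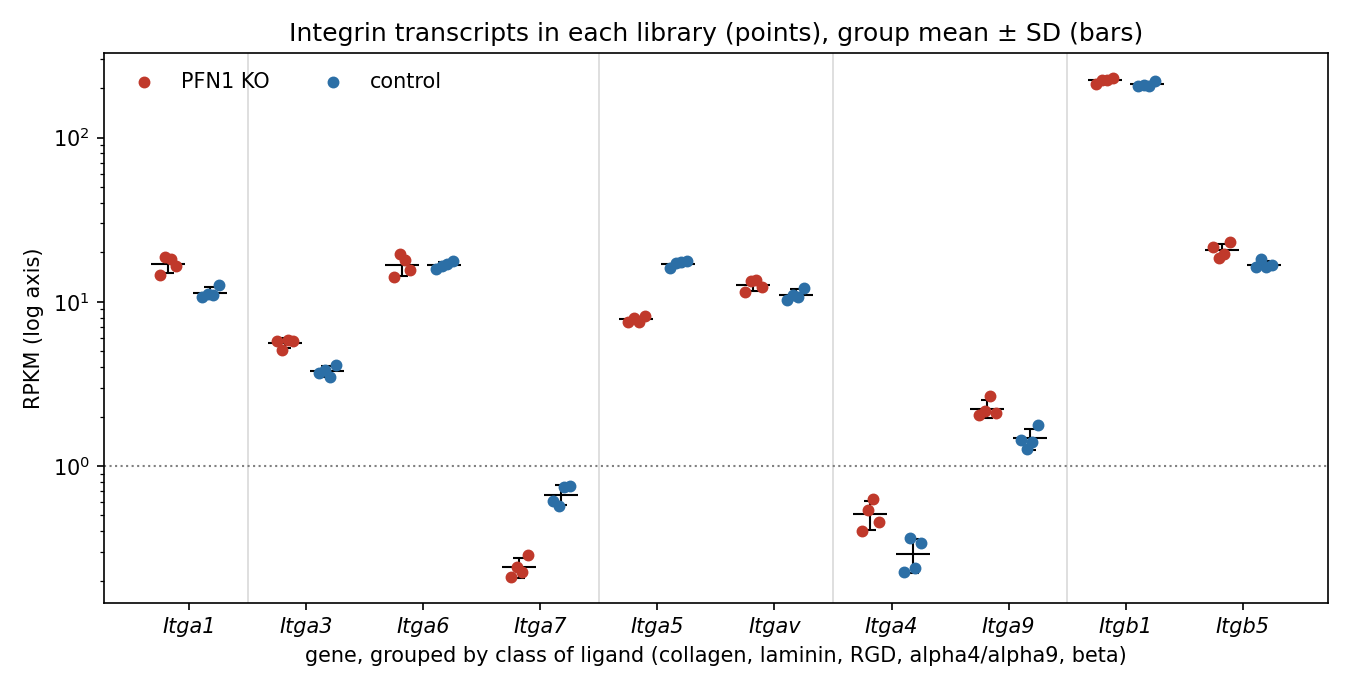
RPKM (log axis) of each integrin gene in the 4 PFN1 KO libraries (red, left) and 4 control libraries (blue, right), with libraries 1 to 4 from left to right in each cluster and black bars for mean ± SD; vertical lines separate collagen, laminin, RGD and alpha 4/alpha 9 chains from beta chains, and the dotted line marks 1 RPKM. Itga5 and Itga7 lie lower in every PFN1 KO library, Itga1, Itga3, Itga4, Itga9 and Itgb5 lie higher, and Itgb1, at 206 to 231 RPKM, stands above all others.

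Itga5 was the only tested member that fell. Its product pairs with beta 1 to form the main fibronectin receptor, which binds the RGD (arginine, glycine, aspartate) sequence. It lay at 7.56, 8.00, 7.57 and 8.17 RPKM in PFN1 KO libraries 1 to 4, against 15.98, 17.2, 17.4 and 17.7 RPKM in control libraries 1 to 4. The groups did not overlap, and within each group the coefficient of variation was small, at 3.91% in PFN1 KO and 4.35% in control libraries. The log2 fold change was -1.03 (SE 0.049, limma adjusted p = 7.21e-08), a level of 45.9% of control in mean RPKM. Only 33 of the 11465 tested genes had a more negative log2 fold change. The gene was backed by an estimated 959 to 2590 reads per library. The call held in all 18 alternatives, with log2 fold changes of -1.114 to -1.003.

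Itga1 rose to a level next to that of Itga6. Its product pairs with beta 1 as a receptor for collagens, with collagen IV of basement membranes among its ligands. It lay at 14.5, 18.8, 18.2 and 16.5 RPKM in PFN1 KO libraries, against 10.7, 11.2, 11.0 and 12.7 RPKM in control libraries. The groups did not overlap, although PFN1 KO library 1 and control library 4 approached each other. The log2 fold change was 0.53 (SE 0.078, limma adjusted p = 0.000218), or 1.49-fold in mean RPKM. Without those 2 libraries it was 0.65. In RefSeq the span of Itga1 overlaps that of Pelo, which fell to 86.0% of control, with 11.1 ± 0.871 RPKM in PFN1 KO and 12.9 ± 0.496 RPKM in control libraries (limma adjusted p = 0.0145). The labels do not say how reads in overlapping spans were counted, so reads of the 2 genes may be mixed.

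The laminin receptor chains did not move together. Itga3, whose product with beta 1 binds laminins of basement membranes, lay at 5.79, 5.06, 5.85 and 5.80 RPKM in PFN1 KO libraries, against 3.67, 3.86, 3.48 and 4.15 RPKM in control libraries. No value overlapped, and the log2 fold change was 0.47 (SE 0.065, limma adjusted p = 0.000163), or 1.49-fold in mean RPKM. Itga6, which pairs with beta 1 or beta 4, lay at 14.2, 19.4, 17.9 and 15.6 RPKM in PFN1 KO libraries, against 15.9, 16.4, 17.0 and 17.6 RPKM in control libraries. The PFN1 KO values spanned the whole control range, with a coefficient of variation of 13.9% in PFN1 KO and 4.38% in control libraries. The log2 fold change was 0.00 (95% interval -0.18 to 0.17, limma adjusted p = 0.967). Itga7, best known from muscle, lay at only 0.211, 0.244, 0.228 and 0.289 RPKM in PFN1 KO libraries, against 0.61, 0.569, 0.745 and 0.753 RPKM in control libraries, or 36.3% of control in mean RPKM. It was backed by an estimated 25.4 to 91 reads per library and was not tested with the filter. Without the filter its log2(RPKM + 1) fold change was -0.42 (limma adjusted p = 0.000257), in a fit that called 32.0% of 18131 genes, 10.4% lower and 21.6% higher. On the authors' scale in the authors' deposited table the log2 fold change of Itga7 was -1.45.

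Alpha v, the partner of beta 5 and also of beta 1 in binding RGD proteins such as vitronectin and osteopontin, was called higher by a small margin. Itgav lay at 11.4, 13.3, 13.6 and 12.3 RPKM in PFN1 KO libraries, against 10.3, 11.1, 10.7 and 12.2 RPKM in control libraries. Control library 4 exceeded PFN1 KO library 1, so the groups overlapped. The log2 fold change of Itgav was 0.18 (SE 0.066, limma adjusted p = 0.0445), and the call held in 7 of 17 alternatives. It was lost with either scaling alternative (adjusted p = 0.0863 and 0.0901) and without control library 1, 2 or 3 or PFN1 KO library 2, 3 or 4 (adjusted p = 0.0662 to 0.124). Itgb5 lay at 21.5, 18.5, 19.7 and 23.0 RPKM in PFN1 KO libraries, against 16.3, 18.1, 16.3 and 16.7 RPKM in control libraries. Its values did not overlap, with PFN1 KO library 2 just above control library 2, and the log2 fold change was 0.28 (SE 0.065, limma adjusted p = 0.00486).

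Itga4 and Itga9 encode closely related chains that with beta 1 bind VCAM-1, osteopontin and other ligands. Itga9 lay at 2.05, 2.15, 2.66 and 2.10 RPKM in PFN1 KO libraries, against 1.44, 1.27, 1.40 and 1.78 RPKM in control libraries. Its groups did not overlap, and the log2 fold change was 0.39 (SE 0.084, limma adjusted p = 0.00287), or 1.52-fold in mean RPKM. Itga4, the least abundant of the 10 members in control libraries, lay at 0.405, 0.539, 0.633 and 0.457 RPKM in PFN1 KO libraries, against 0.228, 0.364, 0.238 and 0.338 RPKM in control libraries. It was not tested with the filter. Without it the log2(RPKM + 1) fold change of Itga4 was 0.22 (limma adjusted p = 0.016), and in the authors' deposited table it was 0.80. The span of Itga4 overlaps that of Cerkl, which was not tested and lay at 0.346 ± 0.142 RPKM in PFN1 KO and 0.181 ± 0.064 RPKM in control libraries. Both genes were thus higher on average in PFN1 KO libraries at levels of the same order, and reads of the pair may be mixed.

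Itgb1, the common partner, was by far the most abundant member. It lay at 212, 223, 226 and 231 RPKM in PFN1 KO libraries, against 206, 210, 206 and 220 RPKM in control libraries. Control library 4 lay inside the PFN1 KO range. The log2 fold change was 0.08 (95% interval 0.00 to 0.16, not adjusted for the number of genes tested) with a limma adjusted p of 0.0824. Without control library 4 it was 0.10 (adjusted p = 0.0336), without PFN1 KO library 1 0.10 (adjusted p = 0.0228), and without both 0.13 (adjusted p = 0.00418). In the authors' deposited table the adjusted p of Itgb1 was 0.255. That table called 6 of the 10 members higher and 2 lower. Over its 23038 genes 18.4% were called higher and 8.73% lower. These shares are not like for like, because 4907 of the genes were at 0 in all 8 libraries while every member had reads. The values of 7 of the 10 members did not overlap between groups, 5 higher and 2 lower. Among the 8 tested it was 5. Over all tested genes the share without overlap was 41.4%, with 26.7% higher and 14.7% lower.

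Set against each other, the levels in PFN1 KO libraries ran from Itga1 (17.0 RPKM on average) and Itga6 (16.8) through Itgav (12.7), Itga5 (7.82), Itga3 (5.63), Itga9 (2.24) and Itga4 (0.509) to Itga7 (0.243). In control libraries the order was Itga5 (17.1 RPKM), Itga6 (16.7), Itga1 (11.4), Itgav (11.1), Itga3 (3.79), Itga9 (1.47), Itga7 (0.669) and Itga4 (0.292). Itga1 and Itga6 overlapped in PFN1 KO libraries, as did Itga5 with Itga6 and Itga1 with Itgav in control libraries. The other neighbours in either order did not overlap. The summed RPKM of the 8 alpha chains was 62.9 ± 5.30 in PFN1 KO and 62.5 ± 3.44 in control libraries (SD, n = 4 each), and Itgb1 stood at 3.56 ± 0.254 times that sum in PFN1 KO and 3.38 ± 0.103 times in control libraries.

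Shares of the alpha sum do not depend on how libraries are scaled to each other, and they are given as a description with no test. Itga5 made up 13.5, 11.8, 11.3 and 13.4% of the alpha sum in PFN1 KO libraries, against 27.2, 27.7, 28.1 and 26.3% in control libraries. Itga1 made up 25.8, 27.8, 27.3 and 27.0% in PFN1 KO libraries, against 18.2, 18.1, 17.7 and 18.9% in control libraries. These were the largest shifts, -14.8 and 8.77 percentage points. Itga3 shifted by 2.95, Itgav by 2.43 and Itga9 by 1.21 points, all without overlap, while the share of Itga6 was 26.6 ± 1.61% in PFN1 KO and 26.8 ± 0.517% in control libraries. By ligand class, the RGD chains Itga5 and Itgav together held 32.6 ± 1.12% in PFN1 KO and 45.0 ± 0.559% in control libraries. The laminin chains held 36.0 ± 0.499% in PFN1 KO and 33.9 ± 0.386% in control libraries. The ratio of Itga5 to Itgav was 0.621 ± 0.053 in PFN1 KO and 1.54 ± 0.072 in control libraries. Per 100 RPKM of Itgb1 there were 3.51 ± 0.106 RPKM of Itga5 in PFN1 KO and 8.10 ± 0.301 in control libraries.

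**Figure D2:**
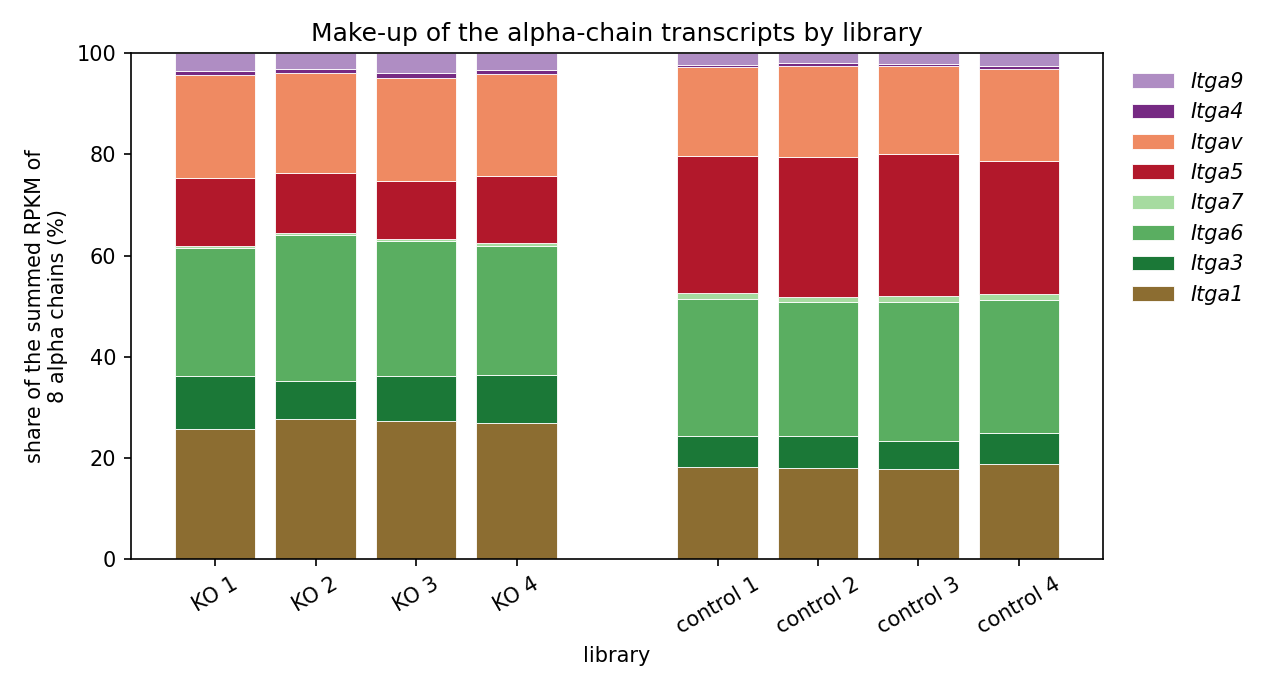
Share (%) of each alpha chain in the summed RPKM of the 8 alpha chains, 1 bar per library, PFN1 KO on the left and control on the right. The Itga5 segment (dark red) spans 11.3 to 13.5% in PFN1 KO and 26.3 to 28.1% in control libraries, and the Itga1 segment (brown) is wider in all PFN1 KO libraries.

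Itga4, Itga6 and Itgav lie on chromosome 2, whose 947 tested genes had a median log2 fold change of 0.26, against 0.04 over the other chromosomes. Relative to that median Itga6 lay 0.27 lower and Itgav 0.09 lower on the log2 scale. Of the 947 tested genes of chromosome 2, 649 were called higher, Itgav among them, and 36 lower. Itga1, Itga3, Itga5, Itga9, Itgb1 and Itgb5 lie on other chromosomes. What part the shift of chromosome 2 has in these 3 genes was not tested.

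Of the other 17 integrin chains 3 reached the filter. Itgb4 lay just under it, at 0.988 ± 0.168 RPKM in PFN1 KO and 0.723 ± 0.111 RPKM in control libraries. In the authors' deposited table the adjusted p of Itgb4 was 0.00818. Without PFN1 KO library 1 and control library 4 together, 4 of the 17 were tested, with 1 called higher and 1 lower. Itga8, the alpha chain of the nephronectin receptor, fell to 2.67 ± 0.320 RPKM in PFN1 KO, against 3.54 ± 0.352 RPKM in control libraries (log2 fold change -0.31, limma adjusted p = 0.00884), although it too lies on chromosome 2. Itgb3 fell to 0.959 ± 0.137 RPKM in PFN1 KO, against 1.27 ± 0.138 RPKM in control libraries (log2 fold change -0.21, limma adjusted p = 0.0411). The groups overlapped for Itgb3, and its call was lost without control library 1, 3 or 4 or PFN1 KO library 1, 2 or 4 (adjusted p = 0.068 to 0.102), and without PFN1 KO library 1 and control library 4 together (adjusted p = 0.134). Itga2, another collagen receptor chain, lay at 1.22 ± 0.214 RPKM in PFN1 KO and 1.247 ± 0.143 RPKM in control libraries (adjusted p = 0.853). Itga10, also of the collagen receptors, was under the filter and not tested. It lay at 0.522 ± 0.086 RPKM in PFN1 KO and 0.257 ± 0.063 RPKM in control libraries, without overlap. In the authors' deposited table the adjusted p of Itga10 was 3.52e-07. Adding Itga2 and Itga8 to the alpha sum left Itga5 at 11.8 ± 1.04% in PFN1 KO and 25.4 ± 0.751% in control libraries. Itgb8 was listed at 0 in every library. With it, 7 of the 17 had means under 0.1 RPKM in both groups, among them the leukocyte chains Itgam, Itgax, Itgad and Itgb2.

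Genes for the ligands were set beside each class of chain, from lists written with earlier results of these data known. For the fibronectin receptor, Fn1 lay at 36.9 ± 3.21 RPKM in PFN1 KO and 36.7 ± 0.755 RPKM in control libraries (log2 fold change 0.01, 95% interval -0.12 to 0.13, limma adjusted p = 0.944). The transcript for the receptor chain thus fell while that for its main ligand did not pass the test. Of 20 genes for ligands of RGD-binding and alpha v integrins, 12 were tested, of which 7 were called higher and 2 lower. The shares over all tested genes were 30.4% called higher and 15.5% lower, and 12 genes are few to set against them. The median log2 fold change of the 12 was 0.25, against 0.06 over all tested genes. When libraries were scaled by median of ratios, this list had 6 higher calls and 2 lower calls. Spp1, which encodes osteopontin, an RGD protein that binds alpha v integrins and also alpha 9 beta 1, lay at 16.02, 14.1, 13.3 and 16.4 RPKM in PFN1 KO libraries, against 2.34, 2.01, 1.49 and 2.13 RPKM in control libraries (log2 fold change 2.42, limma adjusted p = 1.12e-08). Cyr61, a matricellular protein gene, rose 3.31-fold to 2.28 ± 0.43 RPKM in PFN1 KO, against 0.689 ± 0.158 RPKM in control libraries. Tgfbi, which encodes a secreted adhesion protein, fell to 47.3% and Tgfb2 to 65.4% of control (limma adjusted p = 9.53e-06 and 0.000207). The prodomain of TGF-beta 2 lacks the RGD sequence found in those of TGF-beta 1 and TGF-beta 3. Tgfb2 is still counted among the 2 genes of this list called lower. Npnt, which encodes nephronectin, rose to 16.6 ± 1.49 RPKM in PFN1 KO, against 12.7 ± 0.488 RPKM in control libraries, and so moved opposite to its receptor chain Itga8. Vtn, the vitronectin gene, stayed under 0.11 RPKM in all 8 libraries.

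For the collagen receptor chain Itga1, 3 of 16 collagen genes were tested, and none was called (by limma; at an unadjusted p under 0.05 there were also 0). Col4a2 was the most abundant, at 3.92 ± 0.209 RPKM in PFN1 KO and 4.79 ± 1.05 RPKM in control libraries. Its adjusted p was 0.135, and 0.00214 without control library 4, which at 3.36 RPKM lay below the other controls (log2 fold change -0.35). Without PFN1 KO library 1 and control library 4 together, Col4a2 was likewise called lower (log2 fold change -0.34, limma adjusted p = 0.00341). Col4a1 lay at 1.47 ± 0.201 RPKM in PFN1 KO and 1.43 ± 0.162 RPKM in control libraries, while Col1a1, Col1a2 and Col3a1 lay at or near 0. For the laminin receptor chains, 4 of 11 laminin genes entered the test, where 1 rose and 2 fell. Over all tested genes 30.4% were called higher and 15.5% lower, and 4 genes are too few to set against these shares. Lama4 rose to 10.7 ± 0.529 RPKM in PFN1 KO, against 8.49 ± 0.938 RPKM in control libraries (limma adjusted p = 0.00394). Lamc1, the gamma chain shared by most laminins, fell to 33.4 ± 1.16 RPKM in PFN1 KO, against 40.7 ± 0.989 RPKM in control libraries (limma adjusted p = 0.000166). Lamb2 fell to 49.0% of control, with 0.568 ± 0.076 RPKM in PFN1 KO and 1.16 ± 0.090 RPKM in control libraries (limma adjusted p = 0.000302). It reached the filter in control libraries only. Lama5 lay at 3.26 ± 0.468 RPKM in PFN1 KO and 3.49 ± 0.287 RPKM in control libraries (limma adjusted p = 0.46).

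For Itga4 and Itga9, 5 of 12 ligand genes entered the test, where 1 rose and 3 fell. Again this is few genes to set against the 30.4% called higher and 15.5% called lower over all tested genes. Spp1, whose product also binds alpha 9 beta 1 and which was called higher, was counted in the RGD list and not among the 12. Figf, which encodes VEGF-D, an alpha 9 beta 1 ligand, rose 2.61-fold to 7.56 ± 0.346 RPKM in PFN1 KO, against 2.90 ± 0.356 RPKM in control libraries (limma adjusted p = 5.16e-07). Adam12 and Adam15, which encode membrane metalloproteinases with integrin-binding domains, fell to 76.4% and 87.3% of control (limma adjusted p = 0.000496 and 0.00704). Emilin1 fell to 83.8% of control (limma adjusted p = 0.0331), a call lost without control library 1, 2 or 3 or PFN1 KO library 1, 3 or 4 (adjusted p = 0.0597 to 0.1). Vcam1 was listed at 0 in all PFN1 KO libraries and reached at most 0.0346 RPKM in control libraries.

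**Figure D3:**
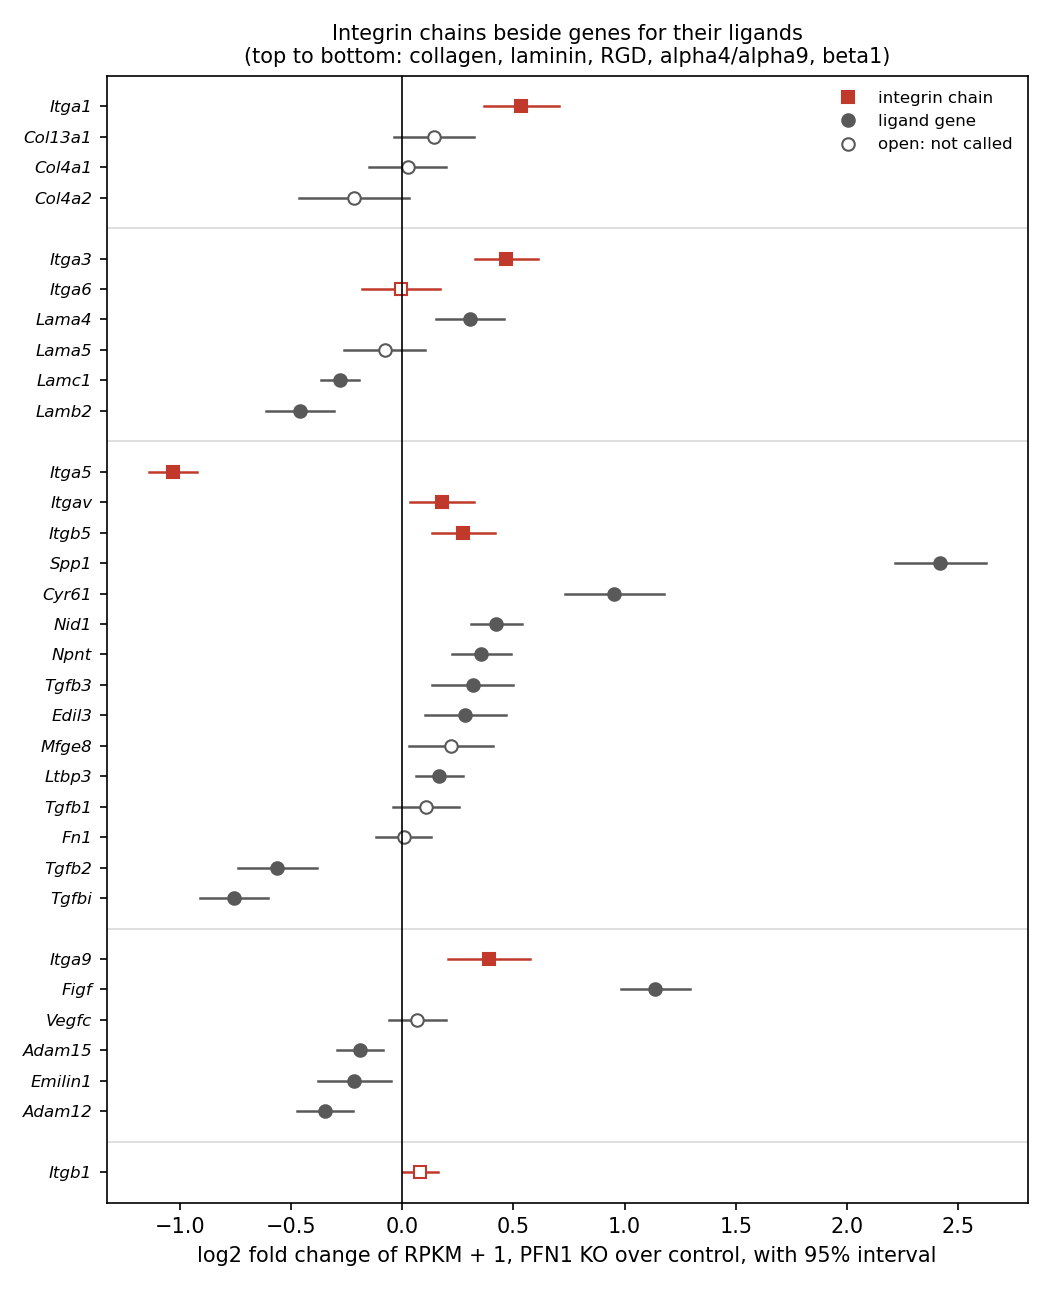
Log2 fold change of RPKM + 1, PFN1 KO over control, with 95% intervals not adjusted for the number of genes tested, for the 8 tested integrin chains (red squares) and the 24 tested ligand genes (grey circles), in blocks for collagen, laminin, RGD and alpha v, alpha 4/alpha 9 and beta 1; open symbols were not called after adjustment. Itga5 lies at -1.03 beside Fn1 at 0.01, and Spp1 lies at 2.42.

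Among cytoplasmic partners of the receptors more genes fell than rose. Of 36 genes for activators and adaptors of the cytoplasmic tails 27 were tested, of which 7 rose and 12 fell, with a median log2 fold change of -0.08. Over all tested genes 30.4% were called higher and 15.5% lower, with a median of 0.06. With median-of-ratios scaling 26 of the 36 reached the filter, and the calls were 4 higher and 16 lower. Without PFN1 KO library 1 and control library 4 together, 26 were tested and the calls were 6 higher and 11 lower. The 2 talin genes moved in opposite directions. Tln2, the talin of neurons and muscle, fell to 71.6% of control (limma adjusted p = 7.01e-06). It lay at 28.6 ± 0.452 RPKM in PFN1 KO and 39.9 ± 1.83 RPKM in control libraries. Tln1 rose to 37.8 ± 1.92 RPKM in PFN1 KO, against 33.8 ± 1.35 RPKM in control libraries (limma adjusted p = 0.0152). The kindlin gene Fermt2 fell to 78.65% of control (limma adjusted p = 0.000185). Tns1, which encodes the adaptor tensin 1, fell to 65.7% of control. Filip1l rose 2.04-fold to 1.29 ± 0.151 RPKM in PFN1 KO, against 0.64 ± 0.099 RPKM in control libraries (limma adjusted p = 0.000379). It reached the filter in PFN1 KO libraries only. Itgb1bp2, which encodes the beta 1 tail binder melusin, lay at 1.006 ± 0.090 RPKM in PFN1 KO and 0.575 ± 0.38 RPKM in control libraries. It passed at a limma adjusted p of 0.0486, a call lost without control library 1 or 3 or PFN1 KO library 2 or 4 (adjusted p = 0.0679 to 0.13). The call was also lost with the other pseudocounts, no filter, no trend or no chromosome 2 genes (limma adjusted p = 0.0516 to 0.104). Itgb1bp2 was under the filter with either scaling alternative, and without PFN1 KO library 1 and control library 4 together. Of 22 genes for membrane partners of integrins 17 were tested, of which 7 rose and 4 fell, or 6 and 6 with median-of-ratios scaling, beside the same 30.4% and 15.5% over all tested genes. Cd9, a tetraspanin, fell to 165 ± 9.54 RPKM in PFN1 KO, against 230 ± 6.71 RPKM in control libraries, and Ptgfrn, whose product binds that tetraspanin, fell to 56.1% of control. Plaur, the urokinase receptor gene, and Tspan4, another tetraspanin, rose 1.48-fold and 1.43-fold (limma adjusted p at most 2.48e-05 for these 4).

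The promoters of the 3 chains with the largest log2(RPKM + 1) fold changes among the tested members are shown because 1 fell and the others rose. The choice depends on that scale: in mean RPKM Itga9 rose 1.521-fold, against 1.493-fold for Itga1 and 1.485-fold for Itga3. The Itga9 window is not printed. Sequences are from RefSeq on GRCm38.p6, which matched 8 of the 10 members and spans 250 bases before to 50 after the annotated start, 5′ to 3′ on the strand of the gene; Itga6 and Itga7 had no entry. Capitals mark the GC box GGGCGG and the E-box CAGCTG on either strand, the only searched motifs found in these windows. The Itga5 window is chr15:103366742-103367041 on the minus strand, that of Itga3 is chr11:95076665-95076964 on the minus strand, at the upstream of its 2 listed starts, and that of Itga1 is chr13:115101915-115102214 on the minus strand.
Itga5: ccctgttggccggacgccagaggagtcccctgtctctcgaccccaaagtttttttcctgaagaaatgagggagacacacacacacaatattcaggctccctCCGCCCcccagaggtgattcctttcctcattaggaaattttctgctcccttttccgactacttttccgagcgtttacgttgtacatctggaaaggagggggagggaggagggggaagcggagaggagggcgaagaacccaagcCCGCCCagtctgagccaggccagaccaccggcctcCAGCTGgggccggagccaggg
Itga3: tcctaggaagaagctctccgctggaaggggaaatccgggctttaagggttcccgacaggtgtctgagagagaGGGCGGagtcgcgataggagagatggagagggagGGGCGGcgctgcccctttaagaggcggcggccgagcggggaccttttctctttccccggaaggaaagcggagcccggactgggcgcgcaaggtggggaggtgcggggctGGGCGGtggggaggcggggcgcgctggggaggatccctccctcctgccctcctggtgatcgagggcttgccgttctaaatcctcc
Itga1: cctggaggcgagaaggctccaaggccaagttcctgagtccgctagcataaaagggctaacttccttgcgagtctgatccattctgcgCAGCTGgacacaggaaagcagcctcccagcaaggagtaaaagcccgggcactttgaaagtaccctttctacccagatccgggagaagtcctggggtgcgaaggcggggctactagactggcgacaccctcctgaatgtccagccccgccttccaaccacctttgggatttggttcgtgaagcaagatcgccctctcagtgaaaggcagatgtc
A GC box, the motif of SP1 and KLF factors, was found in the promoters of 6 of the 8 members, against 35.9% of 27025 promoters of the same length, 1 per gene. Itga5, which fell, held 2 and Itga3, which rose, held 3, while Itga1 held 0. CAGCTG was found in 5 of the 8 members and 16.1% of all promoters. The AP-1 motif TGANTCA was found in that of Itga9 (7.93% of all promoters) and, outside the count of 1 start per gene, in the window of the other listed start of Itga3, and the TEAD motif GGAATG in that of Itgb1 (14.6%). The TATA box TATAAA (14.2%) and the SRF CArG box (1.57%) were found in 0 of the 8. The 27025 promoters were not limited to genes with reads in these libraries, while every member had reads, so the shares are not like for like. The motifs do not overlap one another in the windows printed, and a match describes letters only.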

How the data were processed

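The authors deposited 1 table with an RPKM value per gene and library, in which RPKM is reads scaled by gene length and by a library's total of counted reads, and with their own log2 fold change, mean log2 CPM, p-value and adjusted p-value per gene. Per the labels' protocols, a stranded kit with ribosomal RNA removal was used. Tools named in the submitters' processing notes, without their roles, are Bowtie, TopHat, RSEM, CASAVA and edgeR, and the build named is hg19. The gene numbers are those of mouse genes; settings, annotation and use of strand in counting are not given in the sources used here. Genes were matched by number to RefSeq on GRCm38.p6 (22959 of 23038), for names and chromosomes only.

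Depth was estimated: low RPKM values stand in whole-number ratios that give the relative depth of libraries (98.1% of 2063 low genes came out whole within 0.02 reads), and the deposited log2 CPM of genes without reads gives a mean of 30600000 reads if a prior count of 2 was used. Reads per gene are estimates from these.

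Because the table holds RPKM and not counts, log2(RPKM + 1) was fitted with limma 3.58.1 in R 4.3.3, with a trended prior and group as the only term. This scale understates changes of low genes. A gene was tested at a mean of 1 RPKM or more in either group and called at an adjusted p under 0.05. Th, Itgb3, Lamb2, Cyr61, Filip1l and Itgb1bp2 reached that mean in only 1 of the groups. The fit was also run on simulated counts, whose libraries differed only in group, depth and random noise. That run cannot vouch for calls where libraries differ in other ways. Members and lists were chosen with earlier results of these data known. Named besides the 10 members are other chains that were tested, up to 4 called genes per list with the largest change (at most 3 in 1 direction), the most abundant ligand of each class, and Pfn1. Npnt, Col4a1, Col1a1, Col1a2, Col3a1, Lama5, Vtn, Vcam1, Tln1, Fermt2, Itga10, Rn45s, Pelo, Cerkl and the chains at or near 0 were named after their values were seen. Alternatives were other pseudocounts, filters and scalings, no trend, a replicate block, leaving out chromosome 2, and leaving out libraries. Shares were computed within each library. Some marker genes are not reported here.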

Additional observations from a re-analysis of the deposited data

Results flagged for a closer look

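Among the levels and alpha shares of the members, 36 groups of 4 libraries were searched for 1 library far from the rest, of which chance gives about 1 in 20. Itga3 RPKM in PFN1 KO library 2 stood low, at 5.06 RPKM, with a gap to its nearest neighbour of 0.92 of the group's range. The share of Itga3 in the alpha sum stood low in control library 3, at 5.61%, with a gap of 0.90 of the range. Itga3 stayed called without either library.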

How the results depend on the processing

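The calls of Itga1, Itga3, Itga5, Itga9 and Itgb5 held in every alternative run that tested them. Over all genes, 2709 were called lower with median-of-ratios scaling and 2758 with upper-quartile scaling, against 1772 without scaling; total calls stayed within 1.5 times. Without the filter on low values, 2 integrin members were called lower (Itga5 and Itga7) and 5 higher, Itga4 being gained and Itgav lost (adjusted p = 0.0785). Leaving out 1 library at a time gave 4 to 6 members called higher and 1 lower. Without control library 4 and PFN1 KO library 1, 6 members were called higher and 1 lower. The Itga5 share shifted by -15.2 to -14.4 points and that of Itga1 by 8.498 to 9.16 points without 1 library. With the replicate block the members called were still 6. Deviations of same-numbered libraries from their group means had correlations of -0.201 to 0.174, and those of differently numbered libraries -0.314 to 0.262. With 4 libraries per group these values cannot settle whether the numbers pair the libraries. Of the named genes the block ended the calls of Itgb3 (limma adjusted p = 0.0631) and Itgb1bp2 (0.0608). For Tln1 and Fermt2 the alternatives are not reported here. The causes were not tested. Itga4 and Itga7 rest on few reads.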
